A study of Rattus norvegicus with 12 samples.

Results

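The genes described here are 9 ion and metal transport genes of the choroid plexus, Kcnj13, Kcne2, Clic6, Slc4a5, Slc4a2, Car12, Trpv4, Slc31a1 and Steap1, out of 35608 genes named on a rat array. They were measured in the dorsal striatum of 12 male rats. The members were chosen from an earlier reading of these same 12 arrays, in which most of them were high on the arrays of stimulated rats. Their difference between the HFS and 6-OHDA groups is therefore a description here and not an independent finding. Of the 41012 probes, 9 carry a member's name, so that each gene rests on 1 probe and 1 spot per array.

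The choroid plexus is the epithelium in the brain ventricles that secretes cerebrospinal fluid. It moves sodium, chloride and bicarbonate from blood to ventricle and takes potassium back, with water following through the aquaporin Aqp1. Potassium channels recycle potassium at the ventricular face, carbonic anhydrases supply bicarbonate, and the Slc4 family exchanges bicarbonate across both faces. Several of these genes are also used by other cells, so a member is not in itself a marker of the plexus.

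All 12 rats had received 9 µg of 6-OHDA, a toxin of dopamine neurons, in the left substantia nigra pars compacta (SNc). The 6-OHDA group had no further treatment, and the HFS group had an electrode in the subthalamic nucleus on the lesioned side with continuous stimulation at 130 Hz, 80 µs and 60 µA for 5 days. The DOPA group received 25 mg/kg L-DOPA with 12.5 mg/kg benserazide in 2 daily injections for 19 days, and the DOPA/HFS group had the same injections with the stimulation during the last 5 of those days. Each group held 3 rats with 1 array each. The methods give an electrode to the stimulated groups alone and name no implant without current, so that the 2 cannot be told apart in these groups. Punches of dorsal striatum from 1 rat were combined before RNA was extracted. Strain and age are not given in the labels.

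Values are log2 of the background-corrected spot signal after quantile normalization, which gives all arrays the same distribution. A spot is called well above background by the scanner software, and that mark was met by 53.8% to 58.9% of spots on the 6-OHDA arrays, 60.3% to 63.2% on HFS, 50.5% to 58.0% on DOPA and 60.0% to 62.8% on DOPA/HFS. The lowest log2 signal of a single spot so marked lay between 4.61 and 5.30 on the 6-OHDA arrays and between 4.03 and 4.45 on the HFS arrays, so a dim probe was marked more readily on the latter. Each slide held 1 array of each group in the same order, so position on the slide and treatment cannot be told apart. DOPA/HFS replicate 3 had 4175 outlier spots against 2 to 25 on each other array, and its spots for Slc4a2 and Slc4a5 were among them and were left out. The tissue carried its label: the mean log2 signal of the 10 striatal projection neuron markers with a value on every array lay between 13.2 and 13.7 on every array.

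The promoters of 3 members are shown because these genes lay below or near background on the 6-OHDA arrays and well above background on all 3 HFS arrays. They run from 250 bases before to 50 bases after a transcript start, 5′ to 3′, and come from RefSeq with the rat assembly GRCr8. Capitals mark CCAAT and TATAAA on either strand. The Kcnj13 window is chr9:95518937-95519236 on the minus strand, the Slc4a5 window chr4:117283044-117283343 on the plus strand, and the Steap1 window chr4:29231559-29231858 on the plus strand. The starts of Kcnj13 and Slc4a5 lie inside their gene records rather than at the outer edge.

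Kcnj13: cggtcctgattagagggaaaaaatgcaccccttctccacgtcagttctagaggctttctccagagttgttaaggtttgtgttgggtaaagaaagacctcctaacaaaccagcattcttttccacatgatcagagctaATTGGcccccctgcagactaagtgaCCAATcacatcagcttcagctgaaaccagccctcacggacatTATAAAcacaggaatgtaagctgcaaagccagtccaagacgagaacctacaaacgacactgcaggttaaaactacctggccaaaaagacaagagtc

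Slc4a5: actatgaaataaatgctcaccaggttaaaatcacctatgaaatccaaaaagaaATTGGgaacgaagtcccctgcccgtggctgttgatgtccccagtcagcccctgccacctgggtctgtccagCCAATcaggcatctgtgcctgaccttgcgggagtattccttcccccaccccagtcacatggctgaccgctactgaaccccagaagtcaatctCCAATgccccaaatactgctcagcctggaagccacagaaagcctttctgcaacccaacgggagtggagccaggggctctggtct

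Steap1: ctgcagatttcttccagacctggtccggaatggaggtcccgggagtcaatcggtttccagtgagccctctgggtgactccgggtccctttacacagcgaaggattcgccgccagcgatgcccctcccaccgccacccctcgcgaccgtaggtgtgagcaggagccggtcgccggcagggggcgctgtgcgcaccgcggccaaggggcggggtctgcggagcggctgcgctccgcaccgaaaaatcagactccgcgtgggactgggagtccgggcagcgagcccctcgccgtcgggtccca

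The table held a promoter for 7 of the 9 genes and none for Kcne2 and Clic6. CCAAT was found in 2 of the 7, Kcnj13 with 2 matches and Slc4a5 with 3, against 37.5% of 33469 promoters. TATAAA was found in 1 of the 7, Kcnj13, against 14.2% of all. The letters TAATCC, the motif bound by the choroid plexus regulator Otx2, were in 0 of the 7 windows and in 7.17% of all promoters. The share of G and C was 46.3% in Kcnj13, 54.0% in Slc4a5, 59.0% in Car12, 63.0% in Slc31a1, 69.0% in Steap1 and 73.7% in Trpv4, and it was highest in Slc4a2. Of the 7 windows, 6 lay above the median of 51.7% over all promoters, and Kcnj13 lay below it. None of these motifs was in all 7 windows.

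On the chromosomes, Kcne2 and Clic6 are near each other on rat chromosome 11, with 208 kb and 5 protein-coding genes between them, of which Kcne1 is 1. Kcnj13 lies within the gene Gigyf2 on chromosome 9, and Steap1 is next to Steap2 on chromosome 4. The other members stood apart from each other. These neighbours come from the RefSeq gene table of GRCr8.

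Kcnj13 encodes the inward rectifier Kir7.1, a potassium channel of the ventricular face of the plexus. Its log2 signal on the 3 6-OHDA arrays was 2.72, 2.92 and 2.86, none of them well above background, and each of these is a surrogate that the scanner software put in place of a low reading. On the HFS arrays it was 9.90, 5.72 and 8.98, all well above background. All 3 HFS arrays were above all 3 6-OHDA arrays, with replicate 2 far below replicates 1 and 3. On the DOPA arrays the signal was 2.85, 3.69 and 7.82, and on the DOPA/HFS arrays 2.58, 5.27 and 2.79. In both of these groups 1 array was well above background, DOPA replicate 3 and DOPA/HFS replicate 2, and the other 2 were not. Against the lowest signals marked well above background on the 6-OHDA arrays, the HFS group was at least 9.06-fold higher. Such a bound sets the mean of the bright group against, per array, the lowest signal so marked or the probe's own if higher. It holds only for the group means under the processing described above. It leaves out the spread between arrays, and other processing can give a smaller difference. The measured difference was 5.37 on the log2 scale (SE 1.32, n = 3), and it was 2.32 with a normexp background correction and 2.43 in the deposited log2 table. In tissue pieces such as these, fewer cells of a type and less RNA per cell cannot be told apart.

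Kcne2 encodes a small subunit that joins potassium channels such as Kcnq1 in the plexus. Its log2 signal was 3.65, 3.30 and 4.19 on the 6-OHDA arrays and 8.35, 4.66 and 7.98 on the HFS arrays. The HFS arrays were again all higher and in the same order of brightness as for Kcnj13, replicates 1, 3 and 2. The DOPA arrays gave 3.55, 4.71 and 5.97 and the DOPA/HFS arrays 4.70, 3.98 and 4.07. The probe was well above background on 3 HFS arrays and 1 DOPA/HFS array, 4 of the 12, and so did not enter the test. By the group means the HFS group was at least 3.92-fold higher than the 6-OHDA group and at least 3.58-fold higher than the DOPA group. No DOPA array was well above background, but HFS replicate 2 lay below DOPA replicates 2 and 3, so these groups overlapped. The log2 difference from 6-OHDA was 1.22 with normexp and 1.32 in the deposited table. The bound against 6-OHDA thus holds only under the processing described above. On HFS replicate 2 the signal of 4.66 counted as well above background although it was under the lowest such signal on 6-OHDA replicate 2, 5.16. Without HFS replicates 1 and 3 the log2 difference fell from 3.28 (SE 0.92, n = 3) to 0.93.

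Clic6 encodes a chloride intracellular channel protein of secretory epithelia. Its log2 signal was 2.86, 3.72 and 5.06 on the 6-OHDA arrays, none well above background, and 8.13, 5.52 and 8.46 on the HFS arrays. The lowest HFS array was above the highest 6-OHDA array by less than the range within either group. DOPA replicate 3 reached 6.86, beside 4.61 and 2.79 on the other DOPA arrays, and DOPA/HFS replicate 1 reached 5.74, beside 4.27 and 4.03. By the group means the HFS group was at least 5.08-fold higher than the 6-OHDA group. The measured difference was 3.48 on the log2 scale (SE 1.04, n = 3). It was 1.36 with normexp and 1.43 in the deposited table, so this bound holds only under the processing described above. Kcnj13 and Clic6 entered the test with 5 of 12 arrays well above background, of which 3 were the HFS arrays. Their passing the filter on dim probes thus rested on the group in which they were high.

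Slc4a5 and Slc4a2 both carry bicarbonate, Slc4a5 as a sodium bicarbonate cotransporter of the ventricular face and Slc4a2 as a chloride bicarbonate exchanger of the blood-facing side. The log2 signal of Slc4a5 was 4.65, 3.44 and 4.47 on the 6-OHDA arrays and 6.46, 4.51 and 7.01 on the HFS arrays. HFS replicate 2 lay within the range of the 6-OHDA arrays, so these groups overlapped. The DOPA arrays gave 4.20, 3.12 and 4.78, and 2 DOPA/HFS arrays gave 4.70 and 3.79. Slc4a5 was well above background on 4 of the 12 arrays, 3 HFS and 1 DOPA/HFS. By the group means the HFS group was at least 1.95-fold higher than the 6-OHDA group, but this rested on replicates 1 and 3. The measured log2 difference of 1.81 (SE 0.70, n = 3) fell to 0.32 without HFS replicates 1 and 3. It was 0.61 with normexp and 0.65 in the deposited table, so this bound holds only under the processing described above. Within slides, HFS minus 6-OHDA was 1.82, 1.08 and 2.54, positive on all 3.

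Slc4a2 differed in form from the genes above. Its log2 signal was 7.15, 7.49 and 7.81 on the 6-OHDA arrays and 8.09, 8.27 and 8.36 on the HFS arrays, with all 6 well above background. The HFS arrays lay close together, within 0.27 of each other, and all were higher than the 6-OHDA arrays. The DOPA arrays gave 7.92, 7.96 and 7.81 and 2 DOPA/HFS arrays gave 8.00 and 7.24. DOPA replicate 3 and 6-OHDA replicate 3 met at 7.81, so that the DOPA and 6-OHDA arrays overlapped by that pair alone. The HFS difference was 0.75 on the log2 scale (SE 0.22, n = 3) or 1.69-fold. It was 0.78 without HFS replicates 1 and 3, whereas the differences of Kcnj13, Kcne2, Clic6, Slc4a5 and Steap1 were all smaller without them. Within slides, HFS minus 6-OHDA was 0.93, 0.78 and 0.55.

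Steap1 belongs to a family of membrane proteins that includes reductases of iron and copper. Its log2 signal was 3.90, 5.06 and 5.04 on the 6-OHDA arrays and 8.20, 4.96 and 7.14 on the HFS arrays. HFS replicates 1 and 3 were above all 6-OHDA arrays and replicate 2 was among them. The DOPA arrays gave 4.37, 4.79 and 7.01 and the DOPA/HFS arrays 4.54, 4.19 and 3.53. DOPA replicate 3 was well above background, as it was for Kcnj13 and Clic6, and no DOPA/HFS array was. By the group means the HFS group was at least 3.35-fold higher than the 6-OHDA group, but this rested on replicates 1 and 3. The HFS difference was 2.10 on the log2 scale (SE 0.88, n = 3), and 0.30 without HFS replicates 1 and 3. It was 0.88 with normexp and 0.93 in the deposited table, so this bound holds only under the processing described above.

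**Figure D1:**
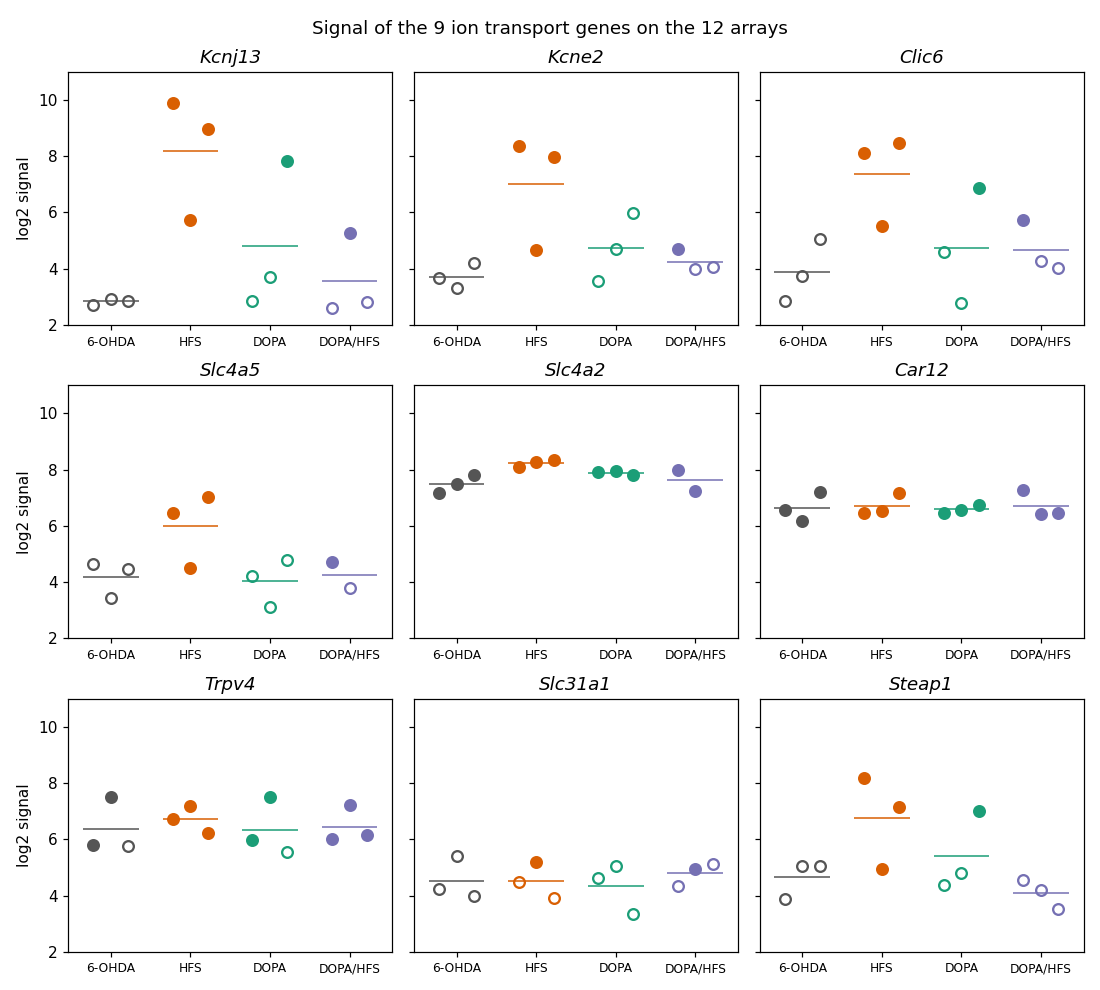
Log2 signal of each of the 9 genes (y axis) by group (x axis), with 1 point per array in the order of replicates 1 to 3 from left to right. Filled points are well above background, open points are not, and lines are group means; the DOPA/HFS replicate 3 points of Slc4a2 and Slc4a5 are missing because their spots were outliers. On the HFS arrays Kcnj13 reached 9.90, 5.72 and 8.98, with replicate 2 lowest, a shape shared by Kcne2, Clic6, Slc4a5 and Steap1.

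Car12, Trpv4 and Slc31a1 showed no such pattern. Car12, a membrane-bound carbonic anhydrase, was well above background on all 12 arrays. Its log2 signal was 6.57, 6.18 and 7.20 on the 6-OHDA arrays, 6.45, 6.53 and 7.17 on HFS, 6.45, 6.57 and 6.75 on DOPA and 7.27, 6.43 and 6.45 on DOPA/HFS. The group means were between 6.59 and 6.72, all groups overlapped, and the HFS difference was 0.07 (SE 0.31, n = 3).

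Trpv4 encodes a calcium-permeable cation channel that responds to osmotic and mechanical stimuli. Its log2 signal was 5.79, 7.52 and 5.77 on the 6-OHDA arrays and 6.74, 7.18 and 6.21 on the HFS arrays. It was 5.97, 7.51 and 5.57 on the DOPA arrays and 6.01, 7.22 and 6.14 on the DOPA/HFS arrays. The second slide was the highest in every group, with 7.18 to 7.52 against 5.79 to 6.74 on the first slide and 5.57 to 6.21 on the third. The second slide did not overlap with the others, while the 4 groups overlapped throughout. The HFS difference was 0.35 on the log2 scale (SE 0.59, n = 3) and 0.94 without 6-OHDA replicate 2.

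Slc31a1 encodes the copper uptake transporter Ctr1. Its probe was well above background on 2 of the 12 arrays, HFS replicate 2 and DOPA/HFS replicate 2, both on the second slide. The log2 signal was 4.22, 5.39 and 3.99 on the 6-OHDA arrays, 4.48, 5.18 and 3.92 on HFS, 4.63, 5.05 and 3.36 on DOPA and 4.34, 4.93 and 5.14 on DOPA/HFS. As for Trpv4, the second slide held the highest array of each group, with DOPA/HFS as the exception. No fold is given, since the bound from the dim arrays was not exceeded in any group.

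**Figure D2:**
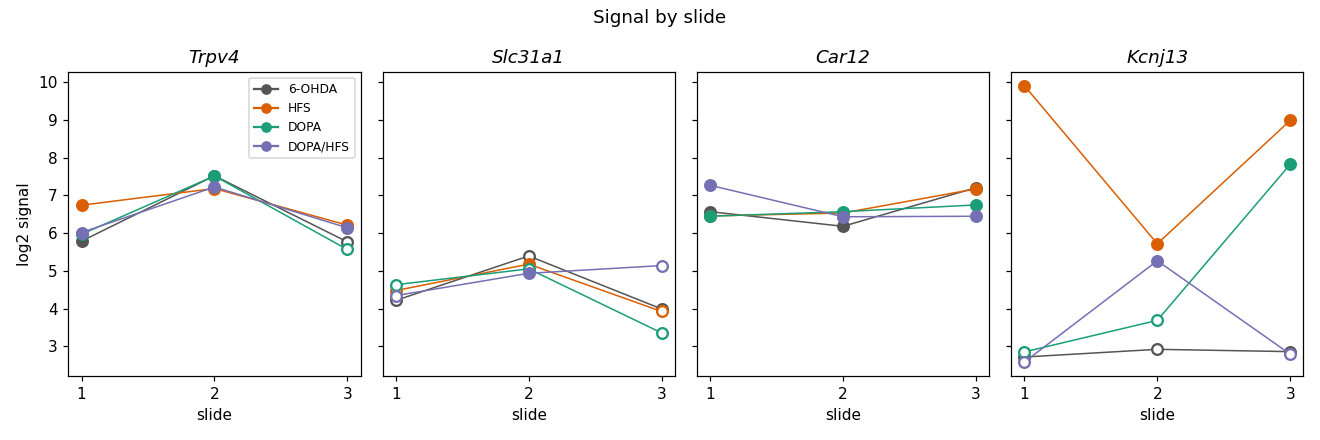
Log2 signal (y axis) of Trpv4, Slc31a1, Car12 and Kcnj13 by slide (x axis), where slide 1, 2 and 3 hold replicate 1, 2 and 3 of every group; lines join the arrays of a group, filled points are well above background and open points are not. Trpv4 was highest on slide 2 in all 4 groups (7.18 to 7.52), while Kcnj13 on the HFS arrays was lowest there (5.72).

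Of the 9 genes, 5 passed the filter of being well above background on at least 5 of the 12 arrays and entered the test over 20408 genes: Kcnj13, Clic6, Slc4a2, Car12 and Trpv4. In limma, with Benjamini-Hochberg adjustment and a limit of 0.1, 0 of the 5 were called between HFS and 6-OHDA, where 0% of all tested genes were. For DOPA 0 of 5 were called against 0.0049% of all genes, and for DOPA/HFS 0 of 5 against 0%. At an unadjusted p under 0.05 the counts were 3, 0 and 0 of the 5, against 479, 529 and 561 of all genes, and the 3 come from the contrast that chose the members.

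All 3 HFS arrays were above all 3 6-OHDA arrays, with a fold over 1.2, for 3 of the 5 tested members and 4 of all 9: Kcnj13, Clic6, Slc4a2 and, without the filter, Kcne2. Over all tested genes with a value on every array this held for 1.87%. The same count was 0 of 9 for DOPA, where 2.1% of genes met it, and 0 for DOPA/HFS, where 1.08% did. In DOPA/HFS 7 of the 9 had a value on every array. The HFS count is one of the values that led to the choice of the genes. The median log2 difference of the 5 tested members was 0.75 for HFS, 0.41 for DOPA and 0.14 for DOPA/HFS, beside 0.01, −0.01 and −0.01 over all genes. These 3 comparisons share the 6-OHDA arrays.

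**Figure D3:**
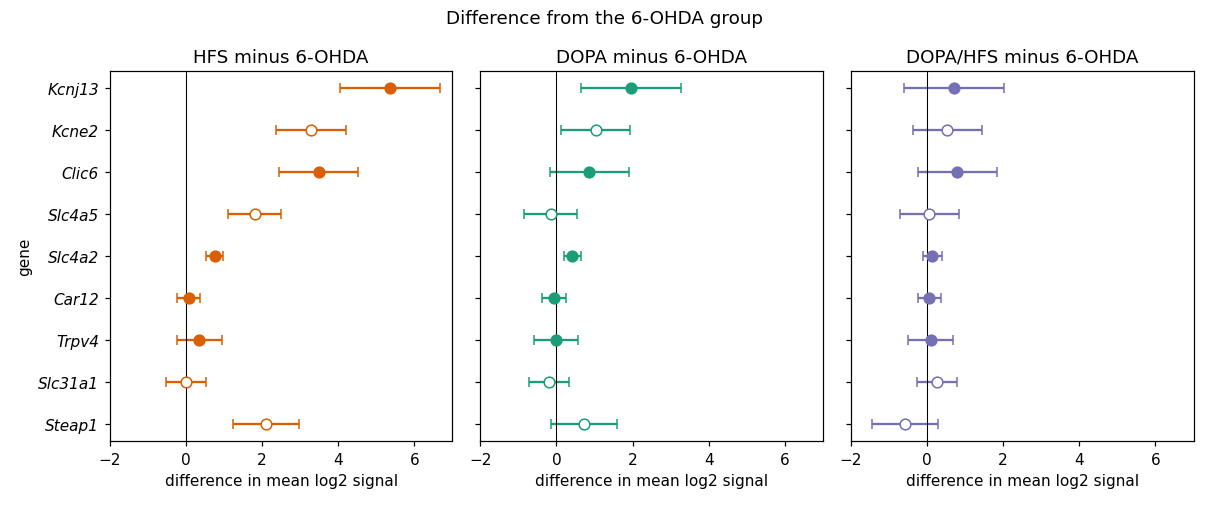
Difference in mean log2 signal from the 6-OHDA group (x axis) for each gene (y axis), for groups of 3 arrays each (2 for Slc4a2 and Slc4a5 in DOPA/HFS). Bars are the SE of the fit; filled points are genes that passed the filter on dim probes, open points are from the fit without it. The HFS differences run from −0.01 for Slc31a1 to 5.37 for Kcnj13.

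The design also asks whether stimulation gave the same difference in rats on L-DOPA. Between DOPA/HFS and DOPA the log2 means of Kcnj13 were 3.55 and 4.79, those of Clic6 4.68 and 4.75 and those of Slc4a2 7.62 and 7.89, with overlapping arrays for each gene. For Kcnj13 and Clic6 this order rested on DOPA replicate 3: without it the log2 differences from 6-OHDA were 0.47 for DOPA and 0.74 for DOPA/HFS in Kcnj13, and −0.19 and 0.84 in Clic6, so that DOPA/HFS was then the higher. For Slc4a2 they were 0.45 and 0.13 without it. The difference of differences was −6.61 (SE 1.86) for Kcnj13, −3.56 (SE 1.47) for Clic6 and −1.03 (SE 0.33) for Slc4a2. For Trpv4 it was −0.24 (SE 0.83) and for Car12 0.06 (SE 0.43). Kcnj13 and Clic6 were each well above background on 0 6-OHDA arrays, 1 DOPA array and 1 DOPA/HFS array. Most of their values outside the HFS group were thus under that mark, and several of Kcnj13 were surrogates. The size of their differences, and the order of DOPA and DOPA/HFS, rest largely on such dim values. In limma 0 of the 5 members passed at an adjusted p under 0.1, as did 0% of all genes, and 3 of 5 had an unadjusted p under 0.05, against 405 of 20408 genes. The HFS arrays that chose the members enter this contrast too.

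The markers of the choroid plexus were set beside these genes, from a list of 26 with no member in it, of which 22 are on the array. The mean log2 signal of the 21 with a value on every array lay between 5.95 and 6.15 on the 6-OHDA arrays, was 8.47, 6.63 and 8.10 on the HFS arrays, 5.77, 6.13 and 7.42 on the DOPA arrays, and lay between 5.96 and 6.37 on the DOPA/HFS arrays. HFS replicates 1 and 3 and DOPA replicate 3, the 3 arrays with the highest list means, were also the 3 highest arrays for Kcnj13, Kcne2, Clic6, Slc4a5 and Steap1. On DOPA replicate 3, however, Kcne2 (5.97) and Slc4a5 (4.78) were not well above background. Slc4a5 was nearly as high on DOPA/HFS replicate 1, at 4.70, and had no value on DOPA/HFS replicate 3. Of the 22 markers, 11 to 14 were well above background on the 6-OHDA arrays, 14 to 20 on HFS, 11 to 14 on DOPA and 11 to 16 on DOPA/HFS. Of the 15 that passed the filter, 6 were higher on all HFS arrays than on all 6-OHDA arrays, beside 1.87% of all genes, with a median log2 difference of 0.96. The list was drawn up with earlier results of these arrays known, so this count is a description and not an independent comparison. On DOPA 0 of the 15 were higher on all arrays, beside 2.1% of all genes. On DOPA/HFS 1 was higher, beside 1.08%, and 1 lower, beside 1.71%. The median differences were 0.06 on DOPA and 0.09 on DOPA/HFS, beside −0.01 over all genes in both. In limma 0 of the 15 were called in any comparison. The part of these markers in the members' differences was not tested.

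Defining markers of the plexus varied widely between arrays. Ttr, the carrier of thyroid hormone and retinol secreted by the plexus, had a log2 signal of 6.23, 6.59 and 5.80 on the 6-OHDA arrays and 16.3, 11.86 and 15.28 on the HFS arrays. It was 2.41, 10.29 and 13.81 on the DOPA arrays and 8.28, 9.25 and 2.79 on the DOPA/HFS arrays, with DOPA replicate 1 and DOPA/HFS replicate 3 not well above background. Its HFS replicate 2 was thus the lowest of the 3, as for Kcnj13. Sostdc1, a secreted antagonist of BMP signalling, gave 12.44, 7.97 and 11.64 on the HFS arrays against 5.50 to 5.68 on the 6-OHDA arrays, and 10.47 on DOPA replicate 3. The folate receptor Folr1 gave 10.34, 7.85 and 9.38 on HFS and 6.22, 8.50 and 7.53 on 6-OHDA, so that these groups overlapped. Prlr, the prolactin receptor, gave 4.69, 2.71 and 4.78 on HFS, with replicates 1 and 3 well above background, and no 6-OHDA array was. Prlr and Aqp1 have several spots per array, and an array is marked for them if any of those spots is, while their values are means over the spots.

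For markers of 4 other cell types the HFS and 6-OHDA arrays overlapped. The mean log2 signal of 8 ependymal markers lay between 7.27 and 8.92 on the 6-OHDA arrays and between 8.45 and 9.08 on HFS. The median log2 difference of the 7 tested ependymal markers was 0.54 for HFS, −0.47 for DOPA and 0.10 for DOPA/HFS. The mean of the leptomeningeal markers lay between 8.63 and 9.04 on 6-OHDA and between 8.69 and 8.95 on HFS. Endothelial markers gave 6.58 to 7.14 and 6.69 to 6.97, and astrocyte markers 10.5 to 10.7 and 10.6 to 10.8.

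**Figure D4:**
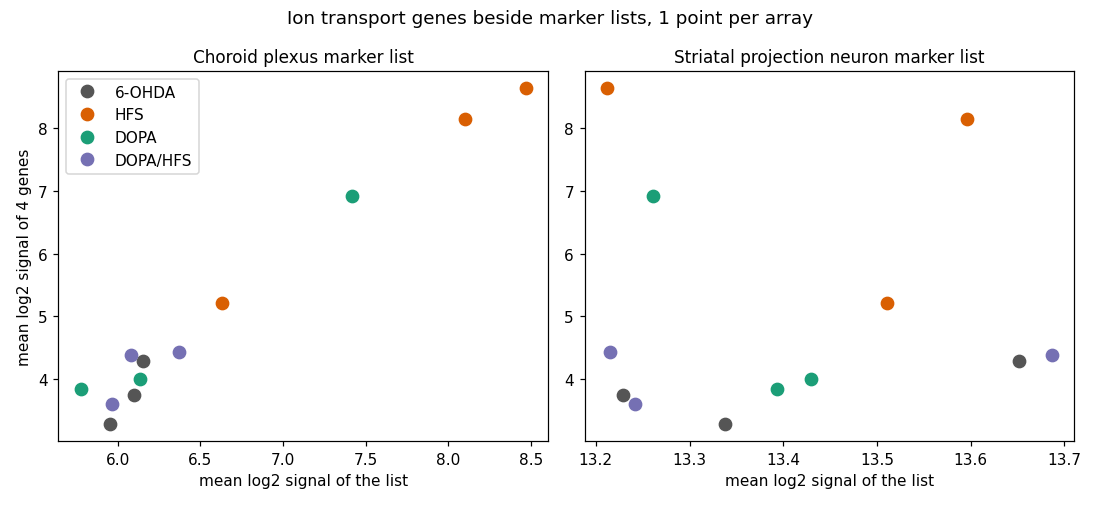
Mean log2 signal of Kcnj13, Kcne2, Clic6 and Steap1 (y axis) against the mean log2 signal of a marker list (x axis), with 1 point per array and colours for the 4 groups; Slc4a5 is left out because 1 array lacks a value. Against the choroid plexus list the HFS replicates 1 and 3 lie at the top right with list means of 8.47 and 8.10; against the striatal projection neuron list, whose means span 13.2 to 13.7, the same arrays lie apart at 13.2 and 13.6.

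The genes whose signal over the arrays was most like the mean of the tested members included Sostdc1 and Aqp1 of the choroid plexus list. In this mean the members were centred but not scaled, so Kcnj13 and Clic6, with the widest ranges of the 5, weighed most. Against the mean centred profile of the 5 tested members, the 5 highest Pearson correlations among 18356 other genes over 12 arrays were Sostdc1 (0.955), AW142560 (0.952), LOC683753 (0.949), Aqp1 (0.936) and Scgb1c1 (0.916). Without HFS replicates 1 and 3, the arrays farthest out, they were 0.864, 0.854, 0.860, 0.790 and 0.709. Because these are the highest of many and the arrays share slides, they describe the pattern and carry no test. Among single members, Kcnj13 was nearest to LOC683753 (0.988), Clic6 to AW142560 (0.961), Kcne2 to Sostdc1 (0.960) and Steap1 to Aqp1 (0.929). Slc4a5 was nearest to Lama2 (0.916) and Slc4a2 to Plpp3 (0.940), both over 11 arrays. Trpv4, which followed the slides, was nearest to LOC681711 (0.971), Slc31a1 to Or5p50 (0.956) and Car12 to RGD1565685 (0.947).

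Few genes of the wider ion transport machinery lay apart from the 6-OHDA arrays. Of 60 other genes of pumps, cotransporters, channels, carbonic anhydrases and metal carriers, 54 are on the array and 43 were tested. In limma 0 of the 43 were called in any of the 3 comparisons. For HFS, DOPA and DOPA/HFS 3, 2 and 1 had an unadjusted p under 0.05, beside 479, 529 and 561 of all 20408 genes. On HFS 3 lay above all 6-OHDA arrays, beside 1.87% of all genes, and 1 lay below, beside 1.33%. On DOPA the counts were 1 above, beside 2.1%, and 2 below, beside 1.78%, and on DOPA/HFS 2 above, beside 1.08%, and 1 below, beside 1.71%. The median log2 difference of the list was 0.07, 0.00 and 0.03.

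The 3 of these genes with the largest HFS differences were Aqp1, Car4 and Slc31a2. Aqp1, the water channel of the plexus, gave 8.47, 5.99 and 8.07 on HFS against 5.42, 5.12 and 5.14 on 6-OHDA, a log2 difference of 2.28 (SE 0.69, n = 3, adjusted p = 0.998 in limma). It is on the choroid plexus list too, and was low on the same HFS replicate 2 as Kcnj13. Slc31a2, the paralog of Slc31a1, gave 6.59, 6.55 and 6.30 on HFS against 6.14, 5.42 and 6.13 on 6-OHDA. Car4, a carbonic anhydrase anchored to the cell surface, was lower on all 3 HFS arrays, with 10.97, 10.64 and 10.72 against 11.80, 11.35 and 11.48. It was also lower on all DOPA arrays, at 11.02, 11.14 and 11.33, and on all DOPA/HFS arrays, at 10.67, 10.44 and 10.70, and its log2 differences were −0.76, −0.38 and −0.94 (SE 0.16 each). The largest differences of the list on DOPA were 0.68 for Slc40a1, the iron exporter ferroportin, −0.65 for the copper pump Atp7a and 0.48 for the chloride transporter Clcn3. On DOPA/HFS they were those of Car4, 0.74 for Steap2 and 0.54 for the cation channel Trpv1. Slc40a1 (SE 0.27) and Steap2 (SE 0.51) were dim, each well above background on 6 of the 12 arrays.

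Paralogs of the members can be set beside them. No array marked Kcne1, Kcne3 or Kcne4 as well above background, so that of the Kcne genes measured here Kcne2 alone reached that mark, and Kcne1 lies between Kcne2 and Clic6 on the chromosome. Of the Clic genes, Clic4 never reached that mark, and the HFS difference was 0.23 for Clic1 (SE 0.20) and 0.07 for Clic5 (SE 0.30). The other Slc4 genes tested had HFS differences of −0.40 for Slc4a1, −0.06 for Slc4a3, 0.24 for Slc4a4, 0.09 for Slc4a7, 0.12 for Slc4a8 and 0.04 for Slc4a10, each with overlapping arrays. Trpv1 and Trpv2 gave 0.52 and 0.04, Steap2 and Steap3 0.28 and −0.10, and Car2, Car8 and Car9 0.05, 0.10 and −0.06. None of these paralogs was called in any comparison.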

How the data were processed

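Gene expression was measured in the dorsal striatum of 12 rats, 3 per group, on single-colour Agilent arrays. The intensity values were deposited by the authors as scanner files made with Agilent Feature Extraction 9.1, per the labels. In these files the background subtracted from each spot equals the fitted spatial surface on every array, very low values were replaced by surrogates, and arrays were not normalized to each other. The series table deposited by the authors holds log2 values that, per their methods, were quantile normalized. The genome build of the probes is not given in the sources used here.

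There were 45018 spots per array, 1639 of them controls. Of the 41012 probes, 10735 were named through RefSeq accessions of GRCr8 and the others kept the files' names; 7 members matched by accession and Car12 and Steap1 by symbol. Outlier spots were left out, log2 signals were quantile normalized, and spots of a probe were averaged, a probe counted as well above background on an array if any of its spots was, and a probe was kept if it was so on a share of 0.4 or more of the 12 arrays. The probe of highest mean signal stood for a gene, which left 20408 genes. Group means were fitted in limma 3.58.1 (R 4.3.3) over all 12 arrays, and a gene was called where its adjusted p was under 0.1 and its fold above 1.2 or below 0.8. For members that did not pass the filter, differences come from the same fit without it. The interaction had no fold limit. The functions were tested on simulated data.

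The members, marker lists and naming rule were chosen with earlier results of these arrays known. Named beside the members are the 5 genes most correlated with their mean, 1 per member, the 3 largest differences of the ion transport list in each comparison, paralogs, and 5 plexus markers. Precision is limited by how few arrays there are. The p-values measure the spread between arrays of a group, in which rat, slide and handling cannot be told apart. Alternatives were 75th percentile scaling, normexp with an offset of 50, the deposited table, other filters, probe choices and thresholds, the slide as a block, fits of the compared arrays only, outlier spots kept, and each array left out. Leaving out HFS replicates 1 and 3 together was added after the values were seen.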

Additional observations from a re-analysis of the deposited data

Results flagged for a closer look

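The stimulated arrays of Kcne2 and Steap1 lay in opposite directions, with all arrays kept, in rats with and without L-DOPA. All 3 HFS arrays lay above the mean of the 6-OHDA arrays, while all 3 DOPA/HFS arrays lay below the mean of the DOPA arrays. For Kcne2 the mean log2 difference was 3.28 without L-DOPA and −0.49 with it, a difference of −3.77 (SE 1.29). For Steap1 it was 2.10 and −1.31, a difference of −3.41 (SE 1.24). Both probes were too dim for the filter, so the difference was not tested among the 20408 genes. In limma without the filter the adjusted p was 1 for both. Steap1 was well above background on DOPA replicate 3 alone of the DOPA arrays, at 7.01, and on no DOPA/HFS array. Kcne2 was well above background on 0 of 3 DOPA arrays and 1 of 3 DOPA/HFS arrays, and DOPA/HFS replicate 1 lay 0.04 below the mean of the DOPA arrays. Without DOPA replicate 3 the log2 differences of Kcne2 from 6-OHDA were 0.43 for DOPA and 0.57 for DOPA/HFS, so that the order turned. Those of Steap1 were −0.07 and −0.58, in the same order as before.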

How the results depend on the processing

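The count of members called stayed at 0 in all 25 alternatives for each comparison with 6-OHDA and in all 23 for the interaction, where 0 to 13 of all genes were called. The number of members with all HFS arrays higher was 3, and 1 to 4 when each array was left out in turn, with 4 reached without 6-OHDA replicate 2. It was 1 without HFS replicate 1, 2 or 3 or without DOPA replicate 3, because Kcnj13 and Clic6 then fell under the filter, and 2 without DOPA/HFS replicate 1 or 2. For DOPA it was 0, and 1 with normexp, 1 in the deposited table and 0 to 1 when each array was left out (1 without 6-OHDA replicate 3, DOPA replicate 1 or DOPA replicate 3). For DOPA/HFS it was 0, and 0 to 1 when each array was left out (1 without 6-OHDA replicate 2 or 3). The HFS count was 1 without HFS replicates 1 and 3 together. In 138 alternatives none of the HFS differences of Kcnj13, Kcne2, Clic6, Slc4a5, Slc4a2 and Steap1 changed sign. Without HFS replicates 1 and 3 they were 2.81, 0.93, 1.61, 0.32, 0.78 and 0.30. With normexp they were 2.32, 1.22, 1.36, 0.61, 0.53 and 0.88. In the log2 values deposited by the authors they were 2.43, 1.32, 1.43, 0.65, 0.56 and 0.93. The normexp and deposited differences were all smaller than those of the main fit, and the reason was not tested. Over all members and comparisons, 39 of 621 alternatives changed the sign and 18 moved by more than the spread between arrays. Keeping outlier spots moved Slc4a5 in DOPA/HFS from 0.06 to 1.26, and Slc4a2 there was −0.24 without DOPA/HFS replicate 1 and 0.51 without replicate 2. The replicate number, which is the slide, was not taken as a pairing in the main fit. Of 18 pairs of equal number, 10 correlated over 0.1 (−0.29 to 0.48), and 5 of 12 arrays were closest to an array of their own number. With the slide as a block and no filter, the SE of the HFS difference was 0.29 for Slc4a5 and 0.25 for Trpv4, smaller than given above. For Kcnj13, Slc4a2 and Steap1 it was larger than given above, at 1.49, 0.24 and 0.91. With the replicate block 0 members were called in each comparison and in the interaction.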
